A study of Mus musculus with 4 samples.

Results

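Nodal, Lefty1, Lefty2, Acvr1b, Acvr2b, Smad2, Smad3, Smad7 and Skil were examined in RNA from mouse embryonic stem cells (ESCs), because they form the core of the Nodal signaling loop. The genes were chosen by symbol, and all 9 had a row among the 14533 genes of the table. The serum ESCs had been grown for over 20 days in medium with serum, and the 2i ESCs for as long in serum-free medium with PD0325901 and CHIR99021, inhibitors of MEK and of GSK3. Both media held LIF per the study's methods. Each condition had 2 libraries, 4 in all, from cells labelled late G1-phase, whereas the series text speaks of early G1-phase. The labels give no cell line or genotype, and beyond the words biological replicate nothing says that the libraries came from separate cultures, so a p-value measures the spread between these libraries, which may be technical.

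Nodal is a secreted ligand of the TGF-β family that binds activin receptors and, through them, phosphorylates SMAD2 and SMAD3. These join SMAD4 and the DNA-binding factor FOXH1 and switch on Nodal itself as well as Lefty1 and Lefty2, which encode secreted inhibitors of Nodal, so that the ligand feeds both its own production and its own restraint. In the early mouse embryo the loop patterns the epiblast and the left-right axis, and in ESCs and epiblast cells it is known for regulating Lefty1, Lefty2 and Smad7.

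The sequences below are shown because Nodal, Lefty1 and Lefty2 are known to be controlled by SMAD proteins together with FOXH1. They came from genome build NCBIM37 (mm9), the plus strand, 5′ to 3′, and all 3 genes lie on that strand. Nodal lies at chr10:60880720-60888086, Lefty1 at chr1:182865153-182868531 and Lefty2 at chr1:182823239-182829234. In the promoters, capitals mark CAGAC or GTCTG, the short SMAD motif and its reverse complement, and AATCCACA, a FOXH1 motif that was searched on both strands, and motifs of both kinds can overlap at their ends, which they did in none of these runs. Each run holds the 250 bases before the annotated gene start.
Nodal promoter, chr10:60880470-60880719: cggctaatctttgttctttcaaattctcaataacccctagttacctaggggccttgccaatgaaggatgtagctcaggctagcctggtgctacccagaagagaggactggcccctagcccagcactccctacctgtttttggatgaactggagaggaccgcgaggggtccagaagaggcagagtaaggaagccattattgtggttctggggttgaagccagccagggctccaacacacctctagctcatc
Lefty1 promoter, chr1:182864903-182865152: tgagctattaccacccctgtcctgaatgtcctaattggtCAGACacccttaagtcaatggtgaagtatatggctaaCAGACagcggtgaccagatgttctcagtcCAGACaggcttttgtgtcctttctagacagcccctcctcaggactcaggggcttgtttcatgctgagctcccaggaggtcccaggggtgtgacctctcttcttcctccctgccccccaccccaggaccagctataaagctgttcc
Lefty2 promoter, chr1:182822989-182823238: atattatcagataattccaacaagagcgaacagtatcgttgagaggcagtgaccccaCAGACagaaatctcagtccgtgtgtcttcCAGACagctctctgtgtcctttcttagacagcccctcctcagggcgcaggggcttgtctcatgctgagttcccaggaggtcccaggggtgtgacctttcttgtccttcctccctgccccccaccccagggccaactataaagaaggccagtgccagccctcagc

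The Lefty1 promoter held 3 CAGAC matches, the Lefty2 promoter 2 and the Nodal promoter 0, and none of the 3 held the FOXH1 motif in these windows. Of 12915 promoters of protein-coding genes of the table searched over the same length, 40.3% held at least 1 CAGAC on either strand and 0.441% held AATCCACA. The Skil promoter held 2 CAGAC and the Smad2 promoter 1, whereas those of Acvr1b, Acvr2b, Smad3 and Smad7 held 0. The Lefty1 and Lefty2 promoters were identical at 178 of 230 aligned bases (77.4%), and in this alignment 40 bases faced a gap.

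FOXH1 motifs were found further away, in windows chosen after the sequences had been seen. Lefty2 had 2 of them 4215 and 4132 bases before its start, Lefty1 had 1 of them 5330 bases before its start, and Nodal had 2 of them inside its first intron, 1327 and 2121 bases after its start. In the same windows, 10000 bases before and 2500 bases after the start, Smad2 had 2 matches before its start and Smad7 had 1 after it. Only the FOXH1 matches are in capitals here, with 25 bases on each side.
Lefty2 upstream, chr1:182818999-182819139: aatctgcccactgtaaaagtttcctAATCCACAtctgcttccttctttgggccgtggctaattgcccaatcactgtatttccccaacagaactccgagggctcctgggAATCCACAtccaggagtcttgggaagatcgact
Lefty1 upstream, chr1:182859798-182859855: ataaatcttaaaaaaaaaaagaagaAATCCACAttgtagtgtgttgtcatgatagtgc
Nodal intron 1, chr10:60882022-60882079: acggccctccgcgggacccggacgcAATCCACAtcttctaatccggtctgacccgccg
Nodal intron 1, chr10:60882816-60882873: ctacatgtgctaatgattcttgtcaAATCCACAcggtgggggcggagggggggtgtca

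At least 1 match within the 10000 bases before the start was common, at 33.3% of genes, but 2 matches starting within 100 bases of each other, as before Lefty2, occurred at 27 genes (0.209%). In the 2500 bases after the start, 8.24% of genes held a match and 0.379% held 2 or more, as Nodal did. Like these windows, the limit of 100 bases was not set beforehand, so the shares are descriptions and test nothing. A match describes letters in the reference genome and not a bound site, and no binding was measured here.

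**Figure D1:**
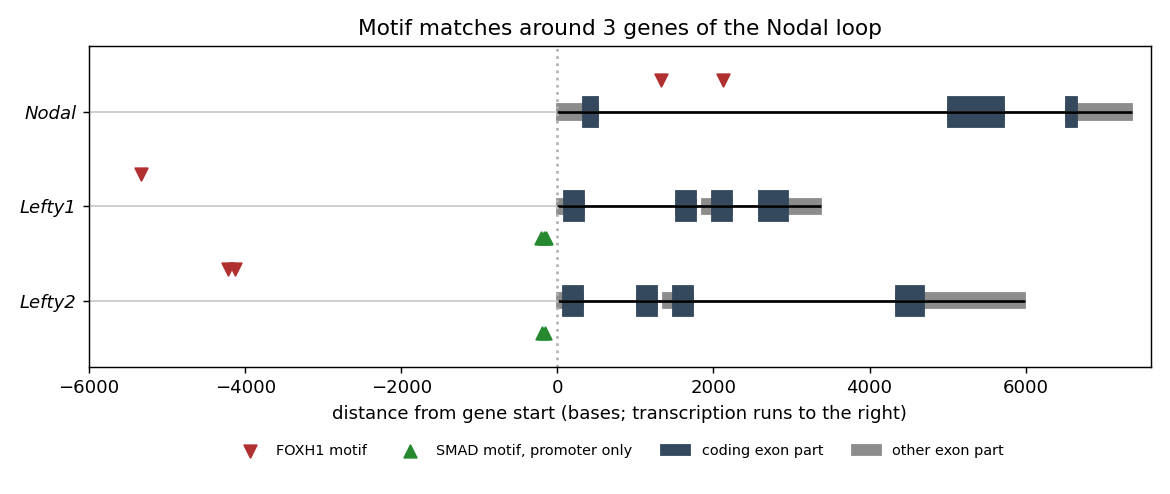
Map of Nodal, Lefty1 and Lefty2 drawn to scale in bases from the annotated gene start, with coding and other exon parts as boxes, FOXH1 motifs (AATCCACA, either strand) as red triangles and SMAD motifs (CAGAC, either strand, searched in the 250 bases before the start) as green triangles. The 2 Nodal matches sit in intron 1, whereas the Lefty2 pair sits 4215 and 4132 bases upstream.

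The libraries held 18939401 to 26570098 whole reads, and the library most like another was not always its replicate. Pearson's r of the log2 values across genes was 0.808 for the pair of serum libraries and 0.628 for the 2i pair. It was 0.782 and 0.815 between the serum and 2i libraries of replicates 1 and 2 (genes are not independent replicates). The median absolute log2 difference ordered the pairs otherwise. It was smallest for the serum pair (0.527), 0.760 for the 2i pair, 0.5325 between the replicate 1 libraries and largest between the replicate 2 libraries (0.801). Protein-coding genes took 46.9% to 76.3% of the reads and the 10 genes with most reads 17.5% to 50.6%. All 8 ESC markers were measured, among them Pou5f1, Sox2 and Nanog, with summed normalized counts of 50787 and 67923 in serum ESCs against 58381 and 79147 in 2i ESCs. Markers of primitive endoderm (4 of 6 in the table, without Sox7 and Dab2) summed to 72.0 and 109 in serum ESCs against 332 and 256 in 2i ESCs, and those of mesendoderm (3 of 5, without Mixl1 and Foxa2) to 275 and 140 in serum ESCs against 280 and 261 in 2i ESCs. Fibroblast markers (2 of 6, without Col1a2, Col3a1, Postn and Lum) summed to 230 and 193 in serum ESCs against 199 and 58.2 in 2i ESCs. The low sum in 2i replicate 2 came from Thy1, with 173 and 185 in serum ESCs against 131 and 7.76 in 2i ESCs. Col1a1 had 57.0 and 8.75 in serum ESCs against 68.5 and 50.4 in 2i ESCs, which overlapped. Trophoblast markers (2 of 4, without Cdx2 and Hand1) summed to 275 and 213 in serum ESCs against 2448 and 196 in 2i ESCs, where Elf5 alone had 2215 in 2i replicate 1. Eomes entered both the mesendoderm and the trophoblast sum, with 157 and 132 in serum ESCs and 233 and 111 in 2i ESCs. The part of these markers in the results that follow was not tested, and in bulk RNA fewer cells of a type and less RNA per cell cannot be told apart.

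No tested member passed the test between serum and 2i ESCs, and all 8 intervals of the tested genes were wide enough to hold a 2-fold change. Values are normalized counts, that is, reads of a gene divided by a size factor of its library, and tests were made with limma on log2(normalized count + 1), with calls made where the adjusted p-value was below 0.05 and the change 2-fold or more. Of the 9 genes 8 were tested, and 0 of these were called, where 2 of all 13005 genes tested were called (0.0154%). At an unadjusted p-value under 0.05 and 2-fold, 0 of the 8 passed, beside 776 of all genes (5.97%), and DESeq2 on whole reads called 0 of the 8, beside 251 of all genes (1.93%). In 2 of the 8, Smad2 and Skil, both serum libraries lay above both 2i libraries, as for 20.5% of all genes. In 1 of the 8, Smad3, both 2i libraries lay above both serum libraries, as for 19.4% of all genes. The other 5 overlapped, as did 60.1% of all genes.

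**Figure D2:**
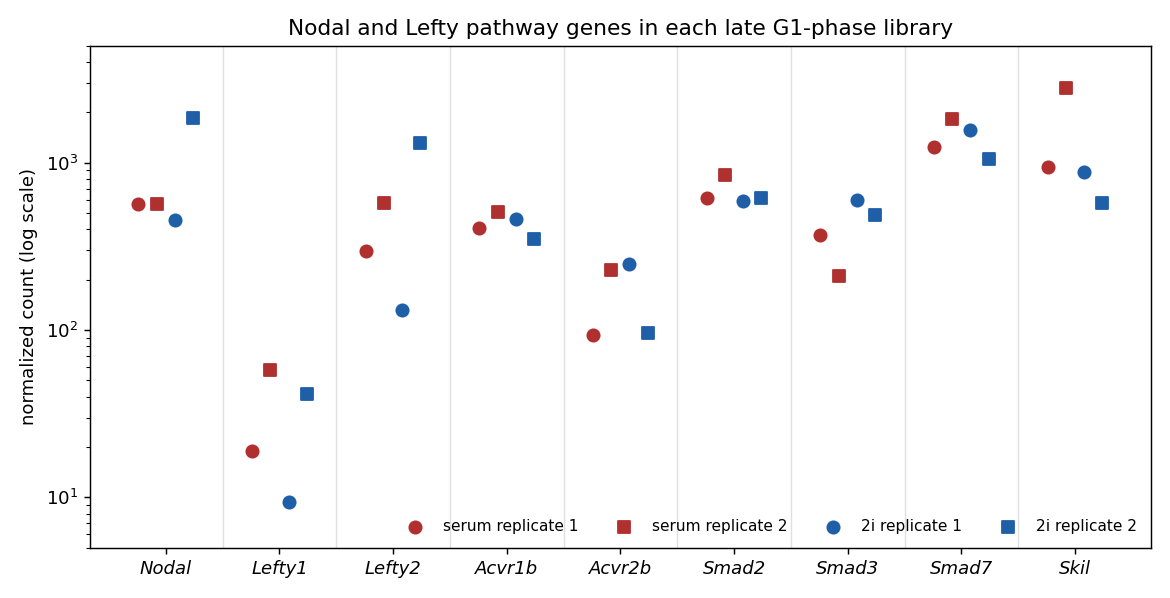
Normalized count (log axis) of each of the 9 genes in each library, with serum in red, 2i in blue, replicate 1 as circles and replicate 2 as squares. The 2i replicates lie furthest apart for Lefty2, at 132 and 1318, and the conditions are apart for Smad2, Smad3 and Skil alone.

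Nodal, the ligand, had normalized counts of 568 and 567 in serum replicates 1 and 2 and of 453 and 1847 in 2i replicates 1 and 2. The serum libraries were nearly equal, one 2i library lay below them and the other far above, so the groups overlapped. The log2 fold change of serum over 2i was -0.69 (SE 0.70, 95% confidence interval -2.38 to 1.01; limma, adjusted p = 0.815). This interval reaches from 5.21-fold higher in 2i to 2.01-fold higher in serum. The fold between the 2i replicates was 4.08, and 13.5% of all genes differed at least as much between them. Without 2i replicate 2 the log2 fold change was 0.33, and without 2i replicate 1 it was -1.70.

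Lefty2, a secreted inhibitor of Nodal, had normalized counts of 295 and 573 in serum and of 132 and 1318 in 2i. The lowest and the highest library were both 2i libraries, so that the serum values lay between them. The log2 fold change was -0.02 (SE 1.06, 95% confidence interval -2.57 to 2.52; limma, adjusted p = 0.997), which leaves room for a change of over 2-fold in either direction. The 2i replicates differed by 3.31 on the log2 scale, and 6.69% of all genes differed at least as much between them. Without one or the other 2i library the log2 fold change was -1.68 or 1.63.

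Lefty1, its neighbour on chromosome 1 and the other Lefty inhibitor, was low throughout, with normalized counts of 19.0 and 57.3 in serum and of 9.34 and 41.7 in 2i. These values rest on 19, 59, 9 and 43 reads, with exact 95% Poisson intervals of 11.4 to 29.7, 44.9 to 76.1, 4.12 to 17.1 and 31.1 to 57.9 reads that cover counting error only. Both replicate 2 libraries lay above both replicate 1 libraries, and the conditions overlapped. The mean of Lefty1 was below 50 in both conditions, so the gene was not tested, and its log2 difference of serum from 2i was 0.70.

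Part of the Lefty reads cannot be assigned with certainty. The coding sequences of Lefty1 and Lefty2 are both 1107 bases long and identical at 1017 of them (91.9%). Of the 43-base words of its transcripts, the length of a read, 79.5% belonged to Lefty1 alone and 86.6% to Lefty2 alone, whereas all words of the other 7 members were their own. The words were compared with annotated protein-coding transcripts only, and not with noncoding transcripts or the rest of the genome.

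The share of Lefty1 in the reads assigned to the pair was 6.05% in serum replicate 1 (Wilson 95% interval 3.91 to 9.26), 9.09% in serum replicate 2 (7.11 to 11.5), 6.62% in 2i replicate 1 (3.52 to 12.1) and 3.07% in 2i replicate 2 (2.28 to 4.11). These intervals, too, cover counting error only. Lefty2 thus held most Lefty reads in every library, and the library with the highest Lefty2 value had the lowest Lefty1 share. Summed over both genes, which needs no such division, the normalized counts were 314 and 631 in serum ESCs against 141 and 1360 in 2i ESCs. The summed log2 fold change was 0.02 (SE 1.04, 95% confidence interval -2.50 to 2.54; limma, adjusted p = 0.997).

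Nodal and Lefty2 shared the order of the 2i libraries. 2i replicate 2 held the highest and 2i replicate 1 the lowest value of all 4 libraries in both genes, a pattern met in 1491 genes (11.5%). Per kb of exon, Nodal exceeded Lefty2 2.40-fold in serum replicate 1, 1.23-fold in serum replicate 2, 4.28-fold in 2i replicate 1 and 1.75-fold in 2i replicate 2. The ratio was therefore above 1 in every library, and its serum and 2i values overlapped.

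**Figure D3:**
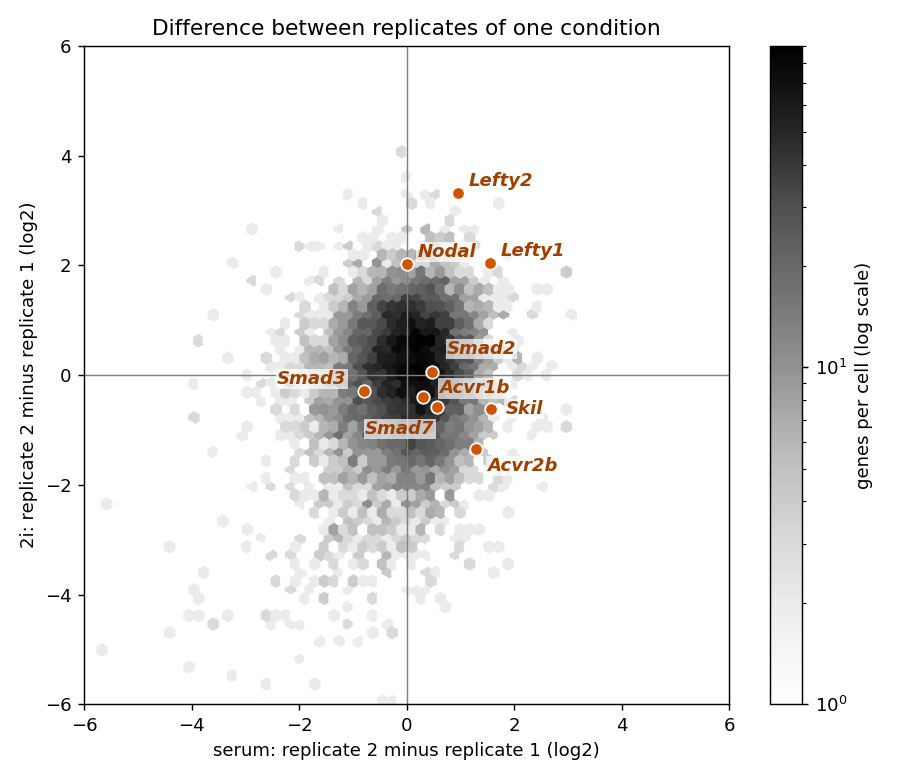
Log2 difference between replicates 2 and 1 in serum (x axis) and in 2i (y axis), with the 9 genes as orange points over the density of the 13005 tested genes, of which 484 lie beyond the axes. Nodal, Lefty1 and Lefty2 lie at the top, 2.03, 2.05 and 3.31 above 0 in 2i, and Acvr2b, Lefty1 and Skil lie at the right, 1.29, 1.54 and 1.57 above 0 in serum.

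Acvr1b encodes the type I receptor ALK4, which phosphorylates SMAD2 and SMAD3. The gene lies at chr15:101004556-101043032. It had normalized counts of 410 and 505 in serum and of 464 and 351 in 2i, values that interleaved. Its log2 fold change was 0.17 (SE 0.45, 95% confidence interval -0.92 to 1.27; limma, adjusted p = 0.935), among the narrowest intervals of the members.

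Acvr2b encodes a type II activin receptor, which binds the ligand and activates the type I receptor. The gene lies at chr9:119311562-119342619. It had normalized counts of 93.0 and 229 in serum and of 247 and 96.0 in 2i, so that a high and a low library stood in each condition. The log2 fold change was -0.08 (SE 0.75, 95% confidence interval -1.88 to 1.73; limma, adjusted p = 0.986). Replicate 1 taken alone was 2.66-fold higher in 2i, and replicate 2 taken alone 2.39-fold higher in serum.

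Smad2 and Smad3, the receptor-activated transducers of Nodal and activin signals, differed in direction. Smad2 had normalized counts of 612.3 and 850.5 in serum and of 587.6 and 612.1 in 2i. The serum libraries lay above the 2i libraries, but the lower serum value and the higher 2i value nearly met. Its log2 fold change was 0.27 (SE 0.44, 95% confidence interval -0.79 to 1.32; limma, adjusted p = 0.897).

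Smad3, which unlike the common Smad2 form binds DNA directly, lies at chr9:63494574-63605801. It had normalized counts of 369 and 212 in serum and of 601 and 491 in 2i. Both 2i libraries lay above both serum libraries. The log2 fold change was -0.95 (SE 0.50, 95% confidence interval -2.15 to 0.24; limma, unadjusted p = 0.0993, adjusted p = 0.753). In size it exceeded the log2 differences between replicates 2 and 1, which were -0.80 in serum and -0.29 in 2i, but it did not pass the test. Replicate 1 alone was 1.63-fold and replicate 2 alone 2.32-fold higher in 2i.

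Smad7 encodes an inhibitory SMAD that blocks the receptors. It had normalized counts of 1239 and 1835 in serum and of 1571 and 1052 in 2i, which overlapped. Its log2 fold change was 0.23 (SE 0.47, 95% confidence interval -0.90 to 1.37; limma, adjusted p = 0.919).

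Skil encodes SNON, a nuclear repressor that binds SMAD proteins. The gene lies at chr3:30993980-31021499. It had normalized counts of 942 and 2796 in serum and of 884 and 579 in 2i. Both serum libraries lay above both 2i libraries, serum replicate 2 far more so than serum replicate 1. The log2 fold change was 1.18 (SE 0.63, 95% confidence interval -0.33 to 2.69; limma, unadjusted p = 0.105, adjusted p = 0.753). Leaving out serum replicate 2 gave 0.40, leaving out serum replicate 1 gave 1.96, and correcting for GC content and length of the transcripts gave 0.66. The serum replicates differed 2.97-fold, and 11.5% of all genes differed at least as much between them.

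**Figure D4:**
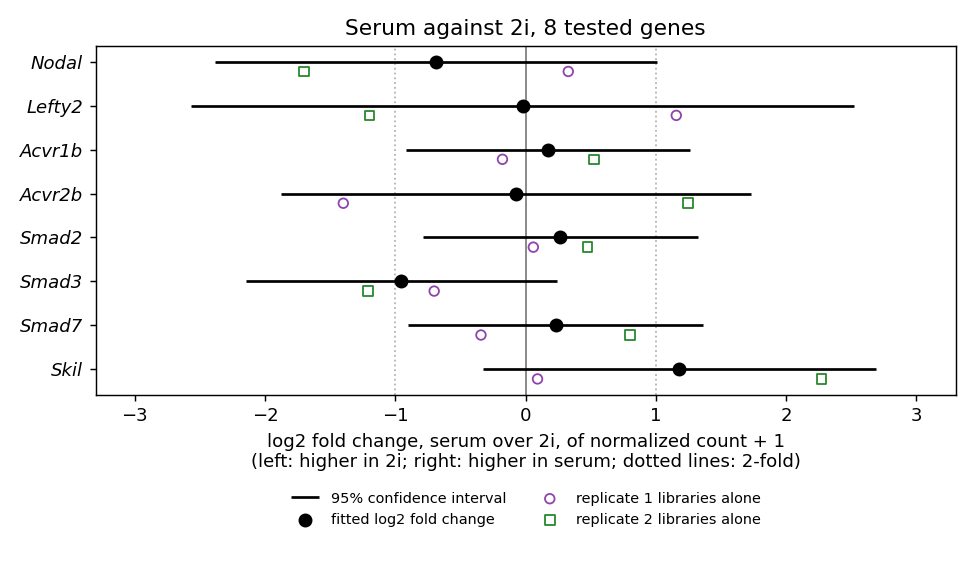
Log2 fold change of serum over 2i with its 95% confidence interval for the 8 tested genes, with the difference between the replicate 1 libraries (open circles) and between the replicate 2 libraries (open squares) below each. All 8 intervals include 0, and the replicate pairs fall on opposite sides of 0 for Nodal, Lefty2, Acvr1b, Acvr2b and Smad7.

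Levels of different members were compared per kb of exon, with all annotated exons of a gene merged (9694 bases for Skil). The order can depend on this choice of length. In serum ESCs the mean normalized count per kb fell in the order Smad7 (339.9), Nodal (270.9), Smad2 (206), Skil (193), Lefty2 (166), Acvr1b (139.7), Acvr2b (92.0), Smad3 (52.4) and Lefty1 (21.7). Of the neighbours in this order Smad7 and Nodal, Nodal and Smad2, and Smad3 and Lefty1 did not overlap between libraries, whereas the other neighbours did. In 2i ESCs the order was Nodal (549), Smad7 (290.0), Lefty2 (278), Smad2 (169), Acvr1b (124), Smad3 (98.5), Acvr2b (97.9), Skil (75.5) and Lefty1 (14.5), and among neighbours Smad2 lay apart from Acvr1b, and Skil from Lefty1. Lefty1 was the lowest in both conditions, and the place of Nodal and Lefty2 in 2i ESCs differed between the libraries, from 216 to 882 and from 50.5 to 505 per kb.

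The genes whose values over the 4 libraries ran closest to those of Nodal, by the root mean square difference of centred log2 values, were C1s (0.0486), Ankrd54 (0.0585) and Camkk1 (0.0737). Those closest to Lefty2 were Fbxl15 (0.0763), Actn3 (0.161) and Gabarapl2 (0.206), and those closest to Lefty1 were Zfp758 (0.110), Ankrd32 (0.125) and 3110001I22Rik (0.139). Each likeness rests on 4 values, and Lefty2 itself came at place 2765 for Nodal, and Nodal at place 282 for Lefty2 (0.658 in both cases).

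The wider pathway was described with a list of 50 genes by role, which includes the 9 members. Of these 38 were in the table and 35 were tested, 0 were called, beside 2 of all 13005 genes (0.0154%). Both serum libraries were higher in 10 (28.6%, beside 20.5% of all genes), both 2i libraries in 5 (14.3%, beside 19.4%), and 20 overlapped (beside 60.1%). The median log2 fold change was 0.03, beside 0.0047 over all genes tested. Listed genes with no row in the table included Gdf1, Inhba, Tgfb2, Tgfb3, Cfc1, Acvr1c, Cer1, Inha, Mixl1, Foxa2 and Lhx1, and Lefty1, Fstl3 and Dand5 were below the limit for testing.

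Among ligands other than Nodal, Inhbb, a subunit of activin B, had normalized counts of 1562 and 2263 in serum and of 1347 and 357 in 2i (log2 fold change 1.44, limma, adjusted p = 0.753). Both serum libraries lay above both 2i libraries. The co-receptor Tdgf1, which Nodal needs to bind its receptors, had 8960 and 15497 in serum ESCs against 11910 and 12734 in 2i ESCs, and these overlapped. Per kb it was above every member in each library, with 4654 to 8051.

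Of the convertases that cleave the Nodal precursor, Pcsk6 had normalized counts of 694 and 869 in serum and of 1547 and 1829 in 2i. Both 2i libraries lay above both serum libraries (log2 fold change -1.11, limma, unadjusted p = 0.038, adjusted p = 0.753). Pcsk6 was 1 of 2 genes with an unadjusted p-value under 0.05 and 2-fold among the 35 tested genes of the list. Of all 13005 genes 776 (5.97%) reached this, so these 2 do not set the list apart. Furin, the other convertase, stood at 4048 in 2i replicate 1 and between 306 and 931 in the other libraries. The other such gene was Tgfbr2, the type II receptor for TGF-β rather than for Nodal, with 92.0 and 59.3 in serum ESCs against 151 and 372 in 2i ESCs (log2 fold change -1.67, limma, unadjusted p = 0.0495, adjusted p = 0.753).

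Smad4, the partner of SMAD2 and SMAD3, had normalized counts of 990 and 1232 in serum and of 873 and 685 in 2i, with both serum libraries higher. Foxh1, whose product recognises the FOXH1 motif shown above, had 439 and 151 in serum ESCs against 392.4 and 478 in 2i ESCs, which overlapped. Drap1, a repressor of Foxh1-dependent transcription, had 699 and 707 in serum ESCs against 1011 and 1056 in 2i ESCs (log2 fold change -0.56, limma, adjusted p = 0.765). Its replicates were close in each condition, and both 2i libraries lay higher.

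The 10 intracellular inhibitors, among them Smad7 and Skil, were all tested, with 0 called. Of these 8 had a log2 fold change above 0, beside 50.3% of all genes, 4 lay higher in both serum libraries, beside 20.5% of all genes, and their median was 0.42 beside 0.0047 over all genes tested. In the whole wider list 19 of the 35 tested genes lay above 0 and 16 below. A difference between roles was not tested. The replicate pairs differed in this. Between the replicate 1 libraries alone, Smad7, Ski, Tgif1, Smurf1 and Pmepa1 were lower in serum. Skil, Tgif2, Smurf2, Nedd4l and Ppm1a were higher there. Between the replicate 2 libraries alone, only Smurf1 was lower in serum. The share of all genes was not computed for single replicate pairs, so these directions are descriptions only. Of the developmental target genes, T, a marker of the primitive streak, had normalized counts of 102 and 6.80 in serum and of 11.4 and 68.9 in 2i, and Eomes, which marks mesendoderm, had 157 and 132 in serum ESCs against 233 and 111 in 2i ESCs. Both overlapped between the conditions. Gsc, a gene of the organizer region, had 16.01 and 0.972 in serum ESCs against 36.3 and 81.5 in 2i ESCs, with both 2i libraries higher (log2 fold change -3.26, limma, adjusted p = 0.756). Gsc reached the limit for testing through its 2i mean alone, 58.9 beside 8.49 in serum. Its value in serum replicate 2 was a single read, so the size of this change is uncertain.

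**Figure D5:**
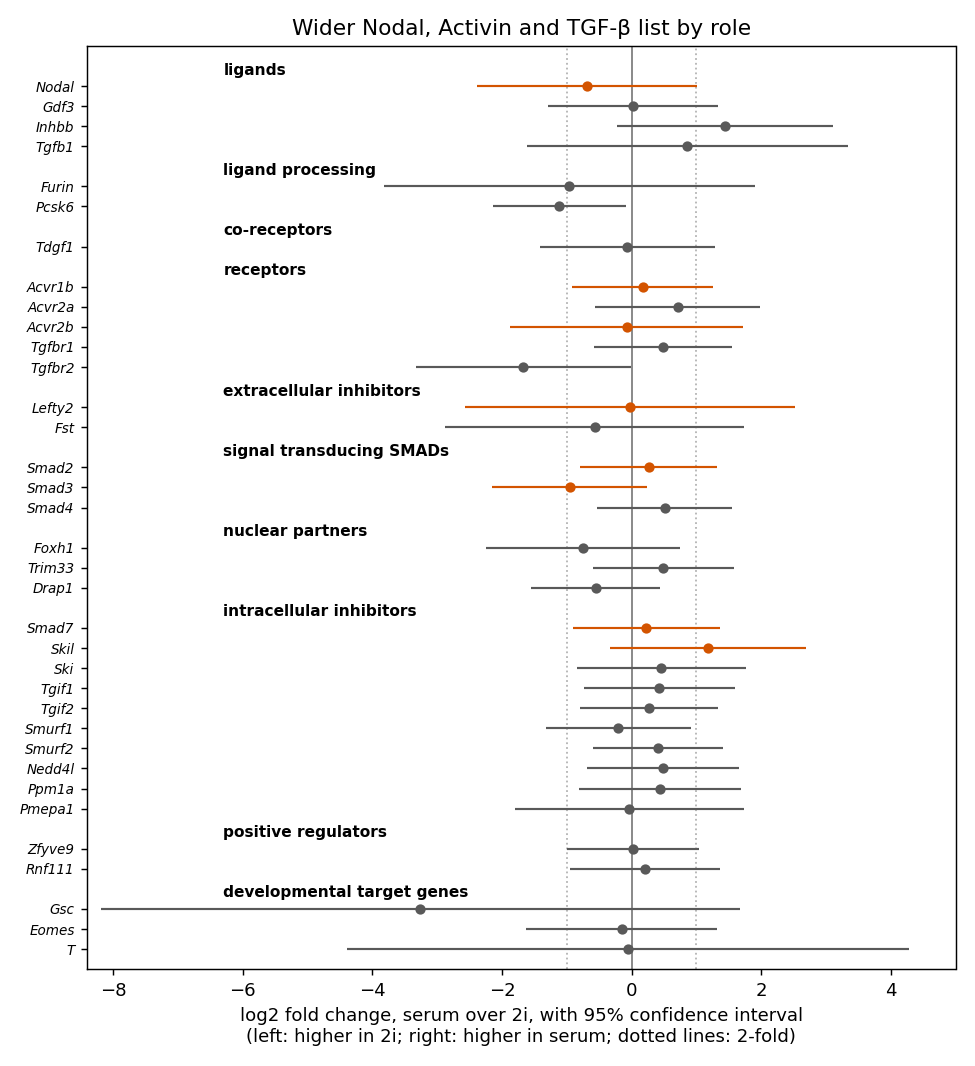
Log2 fold change of serum over 2i with its 95% confidence interval for the 35 tested genes of the wider list, grouped by role, with the members in orange. The intervals of Pcsk6 and Tgfbr2 alone exclude 0 before adjustment, and 0 of the 35 genes were called. Of all 13005 genes tested, 776 (5.97%) had an unadjusted limma p-value under 0.05 and a 2-fold change.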

How the data were processed

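RNA of sorted mouse ESCs was measured in 2 serum and 2 2i libraries. The authors removed ribosomal RNA, sequenced randomly primed single-end reads of 43 bases, aligned them to mm9 with Bowtie and quantified genes with MMSeq, which divides reads that fit several transcripts. Versions, strand setting and the cell line of these libraries are not given in the sources used here. The study's methods describe sorting of R1 ESCs with FUCCI cell-cycle reporters, without naming the line used for RNA. The authors deposited a signal: counts per gene that DESeq2 had scaled by 1 factor for each library. At a tolerance of 0.001 reads, 100% of values were whole reads, from 18939401 to 26570098 a library.

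Genes were matched to GENCODE vM1 of the same build, with 14462 of 14533 found. Testing took in the 13005 genes whose mean reached 50 normalized counts in serum or in 2i. It used limma 3.58.1 (R 4.3.3) with a variance trend and no replicate term, on log2(normalized count + 1), adjusted over all of them (Benjamini-Hochberg), on a scale that understates the change of low genes. As the deposited values were scaled, edgeR 4.0.16 and DESeq2 1.42.0 on whole reads were alternatives. The fit was tested on simulated data. With 2 libraries against 2, an exact permutation test cannot give a two-sided p below 0.333 and was not used. The members, the wider list, the markers and the motifs were chosen with earlier results of these data known. All members were named, and any gene of the wider list could be, together with the 3 tested genes closest to Nodal, Lefty1 and Lefty2. Gsc, Eomes, T, Mixl1 and Foxa2 belong to both the wider list and the mesendoderm markers. Levels per kb used the merged length of all annotated exons of a gene.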

Additional observations from a re-analysis of the deposited data

How the results depend on the processing

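Across 18 settings 0 of the members were called. Smad2, Smad3 and Skil kept their direction in all 17 alternatives to the fit reported. Their serum and 2i libraries did not overlap, so leaving out any single library could not turn them. Smad2 came to 0.03 without serum replicate 2. The others turned when single libraries were left out. The log2 fold change then ran from -1.70 to 0.33 for Nodal, from -0.32 to 1.72 for Lefty1 (not tested), from -1.68 to 1.63 for Lefty2, from -1.61 to 1.65 for Lefty1 and Lefty2 summed, from -0.0272 to 0.37 for Acvr1b, from -0.75 to 0.60 for Acvr2b and from -0.0590 to 0.52 for Smad7, with the lone library assumed to vary like the other group. Lefty2 was 0.11 after quantile scaling and 0.18 after a GC content and transcript length correction, and Acvr2b was 0.0556 and 0.35, with the replicate block too. With edgeR and DESeq2 Lefty2 was -0.76 and -0.75 and Nodal -1.04 and -1.03, and with the GC and length correction Nodal was -0.38. The Lefty sum was -0.0147 with TMM, -0.125 with upper quartile scaling, -0.69 with edgeR and -0.68 with DESeq2, and was not run with the GC and length correction. The median of the wider list, 0.03, was 0.23 at a mean of at least 200, -0.12 with upper quartile scaling and 0.00945 to 0.46 without single libraries. Upper quartile scaling moved the median of all genes to -0.14, and the minimum of 200 moved it to 0.12.

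Among all genes 0 were called higher in serum and 2 higher in 2i. The counts were 44 and 159 with the replicate block, 73 and 178 with DESeq2, and 386 and 390 at unadjusted p-values. Higher in 2i were 4 at a mean of at least 200, 1 without the trend, and 0 with edgeR, with the GC and length correction, with that correction and the replicate block, and without any single library (0 to 0). The causes were not tested. Same-numbered libraries deviated together across genes (r = 0.480, or 0.312 after the GC and length correction), but 2 pairs are too few to call the libraries paired. Under the replicate block Skil had an unadjusted p of 0.042 and an adjusted p of 0.432 in limma. Over the alternatives the adjusted p (limma, edgeR or DESeq2) ran from 0.402 to 1 for Skil and from 0.501 to 1 for Smad3. Lefty1 had an adjusted p of 0.908 in limma without the filter and had no value under the settings that kept it. The values of Lefty1 rest on 9 to 59 reads a library.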
